A study of Mus musculus with 2 samples.

Results

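The genes described here are the heat shock proteins and cytosolic chaperones of mouse liver, with their cochaperones, the mitochondrial chaperones and the heat shock factors. They are a list of 47 genes, out of 18162 genes that the array annotation names by 1 symbol, and they were compared between FLS mice, a model of NASH, and DS mice, a model of simple steatosis. The list holds known members of these families and was drawn up with the signals of these arrays in view. The FLS sample was pooled liver RNA of 3 fatty liver Shionogi (FLS) mice, an inbred strain from the C line of the outbred ddN colony. The DS sample was pooled liver RNA of 3 dd Shionogi (DS) mice, a sister inbred strain from the A line of that colony. Both strains were 19 weeks old, received the same standard pellet diet, and were killed with pentobarbital and perfused with saline before the livers were frozen. Strain and liver disease differ together between the pools and cannot be told apart, and the sources used here do not give the hour of killing or any fasting. Each pool was hybridized to 1 Affymetrix whole-genome mouse array. Without replicate arrays no difference could be tested, and no p-value is given.

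Chaperones bind unfolded proteins and help them to fold, to stay soluble or to be degraded. Hsp70 proteins, aided by J proteins that deliver clients and stimulate ATP hydrolysis, work with Hsp90, the small heat shock proteins and the TRiC/CCT chaperonin ring in the cytosol, while related proteins fold clients inside mitochondria. Some of these genes are transcribed at all times. Others are switched on by heat, oxidants and unfolded proteins through heat shock factor 1, which binds heat shock elements, arrays of inverted GAA units, in their promoters. The members were therefore divided by textbook knowledge, though with earlier results of these data known. There were 14 inducible genes, 10 constitutive cytosolic genes, 6 chaperonin subunits, 10 cochaperones, 5 mitochondrial chaperones and 2 heat shock factors.

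For each gene the probe set of highest mean signal intensity was taken, a gene was measured if its signal exceeded 500 in either pool, and a ratio is the FLS signal over the DS signal. Of the 47 members, 32 exceeded 500 in both pools, 3 (Hspa1a, Hspb1 and Stip1) exceeded it in the DS pool alone and 9 in neither. Hsp90ab1 and Hsf1 had no probe set named for them in the annotation used here, and both probe sets of Ptges3 are named for a pseudogene as well, so these 3 genes were not analysed here. The measured member nearest to the limit was Stip1, with 493 in FLS and 578 in DS livers, and the nearest below it was Hspbp1, with 339 and 380.

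Inducible chaperone genes had lower signals in FLS livers than in DS livers, while the median ratios of the constitutive and mitochondrial genes were near 1. Of 11 measured inducible genes, 8 passed 1.5-fold toward lower signals in FLS livers (5 after division of all ratios by 0.867, the ratio of the beta-actin gene Actb) while none was at least 1.5-fold higher. All 11 had a ratio below 1, and 10 did after that division, where Hspb8 turned to 1.05. Among all 5075 measured genes ranked from the lowest ratio, the gene at rank 2201 had a ratio of 0.999. Of the 24 measured members of the other classes, none differed by 1.5-fold in either direction. Over all 5075 measured genes, 4.49% were lower in FLS livers by 1.5-fold or more, and 6.11% were higher by that much. The division by Actb changed these shares to 2.66% and 14.0%. At a 2-fold limit 5 inducible genes were lower, against 1.77% of all measured genes lower and 2.29% higher. They were 5.56% of the 90 measured genes past that limit and 14.3% of the 35 measured members. The median log2 ratio was -0.75 for the inducible genes, -0.07 for the constitutive cytosolic genes and -0.03 for the mitochondrial genes, beside 0.04 for all measured genes. The difference of the medians was thus -0.68 between inducible and constitutive genes and -0.72 between inducible and mitochondrial genes on the log2 scale. These sizes depend on which genes are called inducible, and with a narrow list of 7 measured genes they were -1.38 and -1.41. All 7 were among the 8 genes at least 1.5-fold lower, so the larger difference followed from the choice of genes.

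Hspb1, Hspa1a and Stip1 passed the signal limit through the DS pool alone and for that reason had to be lower in FLS livers. With a signal above 500 in both pools, 6 of 9 inducible genes were at least 1.5-fold lower, where 3.52% of all such genes were. Without a signal limit, 9 of all 14 inducible genes were, where 2.13% of all genes were, and 13 of the 14 had a ratio below 1. The median log2 ratio of all genes was then -0.036, so most genes had a ratio below 1. These counts describe a list whose members and classes were chosen with the signals known and give no independent support.

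**Figure D1:**
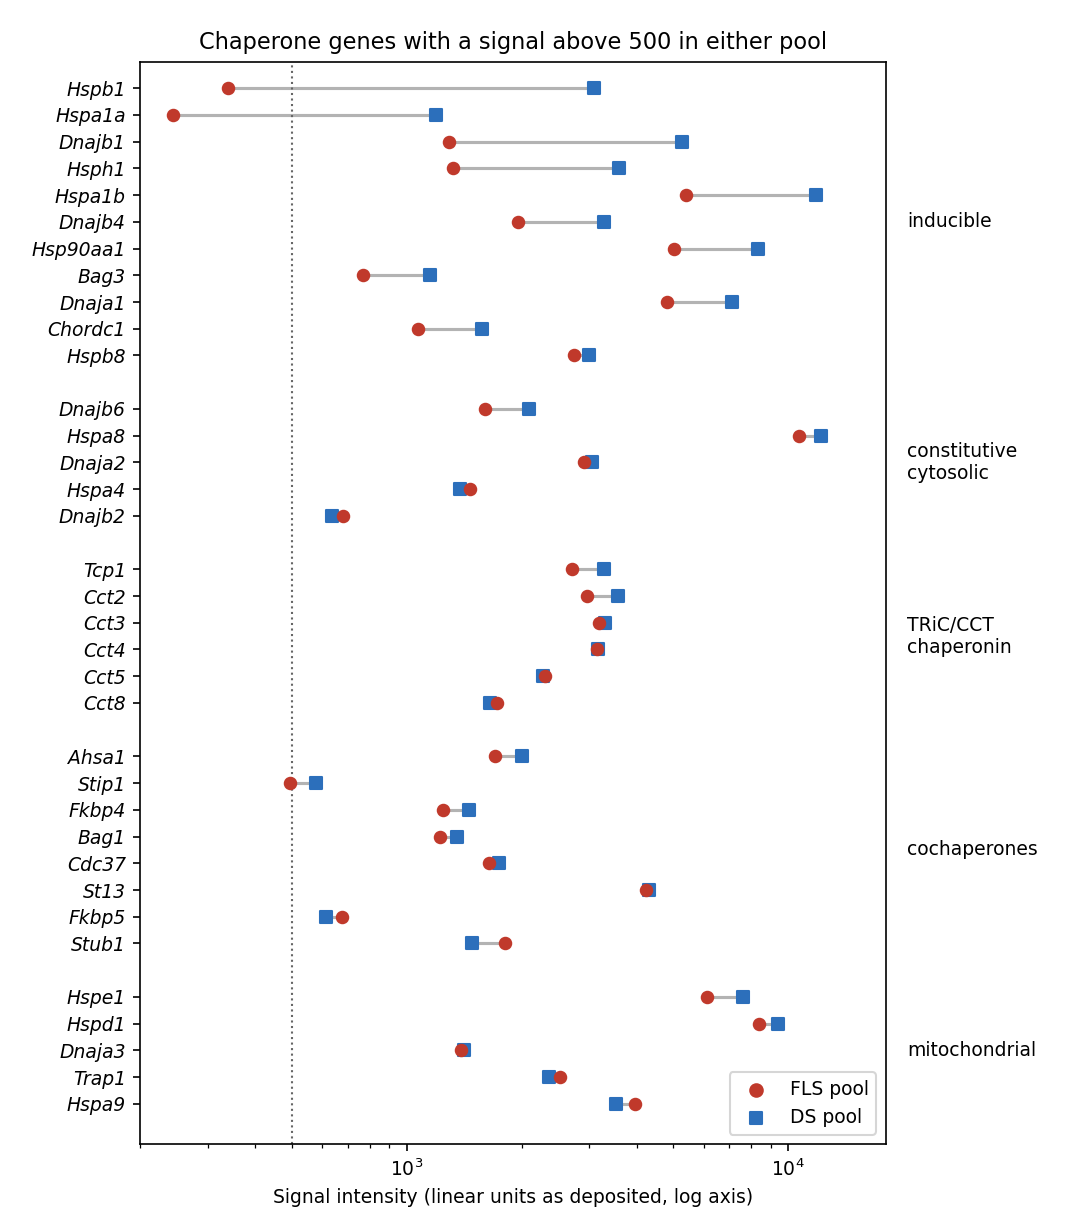
Signal intensities (log axis) of the 35 measured chaperone genes, 1 array per strain, with circles for FLS and squares for DS livers, grouped by class and ordered by ratio within a class. The dotted line marks a signal of 500. All 11 inducible genes have their FLS signal to the left of their DS signal, by 9.13-fold for Hspb1 and 1.10-fold for Hspb8, the single gene of them whose direction turns after division by Actb, while the symbols of most other genes nearly coincide.

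The signal of Hspb1, a small heat shock protein that keeps unfolded proteins soluble, was 339 in FLS and 3101 in DS livers. This was the lowest ratio among the members, 0.109 or 9.13-fold lower in FLS livers, and ranked 7 from the lowest among the 5075 measured genes. Its other probe set gave 227 in FLS and 2554 in DS livers, a ratio of 0.0890. Both FLS signals lay above the array median of 120, yet below 500.

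Hspa1a and Hspa1b, the paired genes of stress-inducible Hsp70, were both lower in FLS livers. The probe set of Hspa1a gave 244 in FLS and 1195 in DS livers, a ratio of 0.204. That of Hspa1b had 5387 in FLS and 11804 in DS livers, a ratio of 0.456. Of the other Hspa1b probe sets, one gave 3286 and 7909 (ratio 0.416) and one 997 and 4011 (ratio 0.249). The 2 genes encode nearly identical transcripts, so a probe set of one may also bind the other, and the values of the pair are uncertain as values of single genes. Hspa1l, a neighbour of this pair expressed mainly in testis, did not exceed 500 and had 78.9 in FLS and 71.2 in DS livers.

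Hsph1 encodes Hsp110, a nucleotide exchange factor that restarts the Hsp70 cycle. Its signal was 1320 in FLS and 3599 in DS livers, a ratio of 0.367, with 471 and 1467 on its other probe set (ratio 0.321). Dnajb1, the heat-inducible J protein that partners with Hsp70, had 1286 in FLS and 5262 in DS livers, a ratio of 0.244 and 4.09-fold lower. Its other probe set gave 630 and 2393, a ratio of 0.263. The core of the inducible Hsp70 machine, that is the chaperone, its J protein and its exchange factor, was thus lower on each of these probe sets.

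The remaining J proteins of this class followed with smaller differences or lower signals. Dnajb4 gave 1953 in FLS and 3282 in DS livers, a ratio of 0.595, and 0.538 on another probe set. After division by the Actb ratio the first became 0.686, short of 1.5-fold. Dnaja1, a farnesylated J protein, had 4820 in FLS and 7114 in DS livers, a ratio of 0.678 that falls just short of 1.5-fold, and its other probe sets had 0.750 and 0.761. Dnaja4 stayed below 500, with 94.6 in FLS and 241 in DS livers, near the array medians in FLS livers.

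Hsp90aa1, the inducible Hsp90 isoform, gave 5026 in FLS and 8316 in DS livers, a ratio of 0.604. A second probe set gave 2854 and 4917 (ratio 0.581) and another 1733 and 4118 (ratio 0.421), so its 3 measured probe sets were all at least 1.5-fold lower. After division by the Actb ratio the first and second were at 0.697 and 0.669, short of 1.5-fold, and the last one remained past it. Bag3, which links Hsp70 to selective autophagy, had 766 in FLS and 1151 in DS livers. Its ratio of 0.666 lay just inside the 1.5-fold limit and passes out of it if the ratios are centred on their median, divided by Actb or given an offset. Chordc1, an Hsp90-binding protein induced by heat, lay just outside with 1072 in FLS and 1574 in DS livers, a ratio of 0.681.

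Not all inducible genes shared the difference. Hspb8, the small heat shock protein that works with Bag3, had 2744 in FLS and 3005 in DS livers, a ratio of 0.913 that turns to 1.05 after division by the Actb ratio. One of its probe sets gave a similar ratio of 0.937, but another had 1009 and 1714, a ratio of 0.589. Cryab, the small heat shock protein of lens and muscle, had 158 in FLS and 154 in DS livers, and Hspa4l, an Hsp110 relative, had 250 and 299. Neither exceeded 500.

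Other probe sets of the inducible genes had ratios in the same direction. The 11 measured inducible genes have 23 measured probe sets, of which all 23 had a ratio below 1, from 0.0890 to 0.937. Of these, 17 were at least 1.5-fold lower (12 after division by the Actb ratio). Shares over all probe sets were not computed, and of all measured genes 4.49% were that much lower (2.66% after division). Those of Hspb8 at 0.913 and 0.937 turn above 1 after division by the Actb ratio. None of the 9 measured probe sets of constitutive genes and none of the 9 of mitochondrial genes was 1.5-fold lower or higher. Probe sets of 1 gene share its RNA and array and are not replicates.

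**Figure D2:**
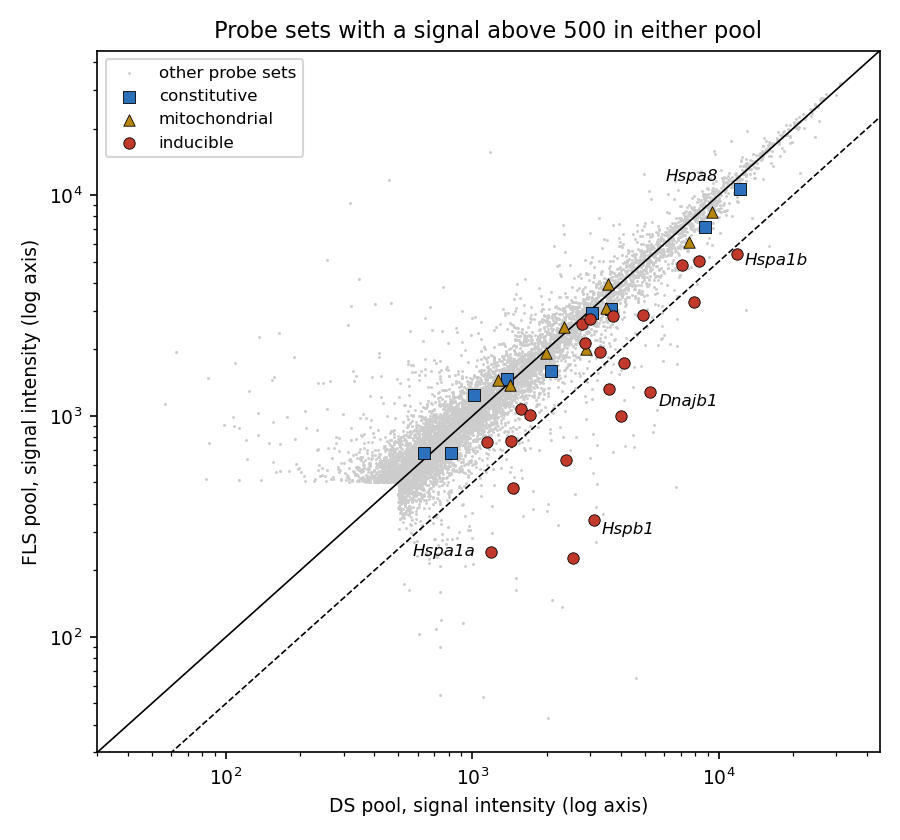
FLS against DS signal intensity (both axes logarithmic) for every probe set with a signal above 500 in either pool, 1 array each. The solid line marks equal signals and the dashed line a DS signal 2 times as high as the FLS signal. The 23 inducible probe sets (circles) all lie below the solid line (all but those of Hspb8 at 0.913 and 0.937 also after division by the Actb ratio) and 11 of them below the dashed line, while constitutive (squares) and mitochondrial (triangles) probe sets lie near the solid line.

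Promoter sequences were searched for heat shock elements because heat shock factor 1 acts through them. RefSeq promoter windows of GRCm38.p6, from 250 bases before to 50 bases after an annotated start, were at hand for 39 of the 47 members. The bases of 6 of them are shown 5′ to 3′ on the strand of the gene, with matches to GAANNTTC or TTCNNGAA, a pair of inverted units, in capitals. Hspb1 (chr5:135887669-135887918, plus strand) and Hspa1a (chr17:34972157-34972406, minus strand) are shown as the genes with the lowest ratios, and Hspa1b (chr17:34959239-34959488, minus strand) for comparison with its twin. The 250 bases of Hspa1a and Hspa1b before the start are identical at 247 positions. Hspe1 (chr1:55087998-55088147, plus strand) shares 285 of the 300 bases of its window with Hspd1 and is shown for these mitochondrial genes. The windows of the mitochondrial genes Trap1 and Dnaja3 held no match. For Hsph1 (chr5:149636280-149636308, minus strand) and Chordc1 (chr9:18292260-18292288, plus strand) the short stretch around the longest element is shown.
Hspb1: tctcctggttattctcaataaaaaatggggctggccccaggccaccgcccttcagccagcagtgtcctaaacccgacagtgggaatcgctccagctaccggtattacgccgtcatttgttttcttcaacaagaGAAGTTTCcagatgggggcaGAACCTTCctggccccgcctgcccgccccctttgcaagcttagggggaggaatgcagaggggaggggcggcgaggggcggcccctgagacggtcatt
Hspa1a: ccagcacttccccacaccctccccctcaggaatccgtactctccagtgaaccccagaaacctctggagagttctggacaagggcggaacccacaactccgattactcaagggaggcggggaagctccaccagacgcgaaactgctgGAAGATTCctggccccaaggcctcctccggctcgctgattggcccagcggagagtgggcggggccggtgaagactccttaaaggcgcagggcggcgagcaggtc
Hspa1b: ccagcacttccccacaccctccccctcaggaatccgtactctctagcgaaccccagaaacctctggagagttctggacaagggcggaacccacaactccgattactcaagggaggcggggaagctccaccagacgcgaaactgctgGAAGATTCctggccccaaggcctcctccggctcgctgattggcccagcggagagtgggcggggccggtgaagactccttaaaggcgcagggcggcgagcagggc
Hspe1: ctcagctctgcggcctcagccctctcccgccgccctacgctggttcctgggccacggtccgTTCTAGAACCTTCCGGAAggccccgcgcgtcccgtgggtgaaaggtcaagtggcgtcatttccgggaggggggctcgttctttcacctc
Hsph1: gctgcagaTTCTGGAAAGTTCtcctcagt
Chordc1: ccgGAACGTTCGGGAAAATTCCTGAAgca

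The window of Hspb1 held 2 separate pairs of units and those of Hspa1a and Hspa1b 1 each. Runs of at least 3 units, GAANNTTCNNGAA or TTCNNGAANNTTC on either strand, were found in Hsph1 and Chordc1 of the inducible genes, but also in Dnajb6, Hspd1 and Hspe1, whose ratios were 0.766, 0.888 and 0.805. Such a run was present in 0.603% of all 32851 windows. A pair of units was present in 15.1% of all windows and in at least 1 window of 17.0% of all genes. It was found in 9 of the 10 measured inducible genes with a window, in 1 of 4 constitutive genes, 2 of 5 chaperonin subunits, 3 of 7 cochaperones and 2 of 4 mitochondrial genes. The inducible class was set up as genes switched on through such elements, so its count is no independent support. Hspa1a and Hspa1b, with nearly identical windows, make up 2 of the 9. Dnajb1 was the measured inducible gene without a pair of units, which says only that these letters are not in its windows. Hspd1 and Hspe1 are the 2 mitochondrial genes with a match, and it lies in bases that their windows share, so 1 element is counted for both. The longer runs overlap the pairs by construction, and no match shows binding.

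The element was also counted over the whole array, without regard to gene class. Of 32 measured genes with a run of at least 3 units, 1 (Hsph1) was at least 1.5-fold lower in FLS livers, that is 3.13%, compared with 4.28% of the 4160 measured genes without such a run. The median log2 ratios of these groups were -0.0068 and 0.044. With a pair of units, 28 of 603 genes were at least 1.5-fold lower (4.64%), compared with 151 of 3589 (4.21%). Genes are not replicates, and no test was made.

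The measured constitutive cytosolic chaperones had ratios between 0.766 and 1.07. Hspa8, the constitutive Hsp70 of all cells, had 10681 in FLS and 12169 in DS livers, a ratio of 0.878. Hspa4, a constitutive relative of Hsp110, had 1467 in FLS and 1382 in DS livers, a ratio of 1.06. The J proteins Dnaja2 and Dnajb2 had ratios of 0.953 and 1.07, and Dnajb6, which suppresses aggregation, had the lowest of the class at 0.766 (1604 in FLS and 2093 in DS livers). Other measured probe sets gave 0.818 and 0.835 for Hspa8, 0.828 for Dnaja2 and 1.22 for Hspa4. Without probe sets ending in _x_at or _s_at the median log2 ratio of the class was -0.26 in place of -0.07. Hspa2, Hspa14 and Hspb6 did not exceed 500 and had ratios of 0.816, 1.00 and 0.867.

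Constitutive and inducible partners of the same family can thus be set side by side. Hspa8 had a ratio of 0.878 while Hspa1b had 0.456, Dnaja2 had 0.953 while Dnaja1 had 0.678, and Hspa4 had 1.06 while Hsph1 had 0.367. In each of these pairs the inducible gene had the lower ratio, although the levels of different probe sets cannot be compared. The J protein pair lay closer on other measured probe sets, with 0.828 for Dnaja2 and 0.750 and 0.761 for Dnaja1. Small heat shock proteins did not all follow. Beside the constitutive Hspb6 at 0.867, the inducible Hspb1 was lower at 0.109, but Hspb8 (0.913) and Cryab (1.03) were higher. Hspb6 and Cryab did not exceed 500.

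**Figure D3:**
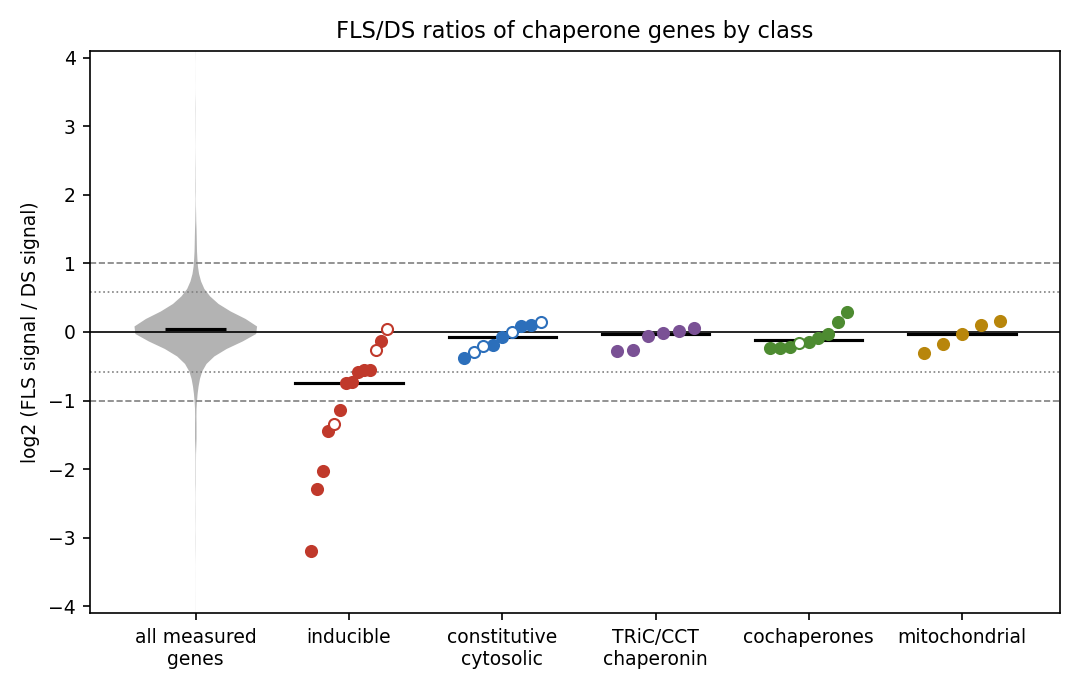
Log2 ratio of FLS to DS signal for each member by class (1 array per strain), with filled points for members above a signal of 500 in either pool and open points for the others. Black bars mark the medians of measured genes, the grey shape all 5075 measured genes, whose thin tails run beyond the axis, and the dotted and dashed lines 1.5-fold and 2-fold. The median of the inducible genes is -0.75, and no filled point of another class passes the dotted lines.

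The mitochondrial chaperones, which fold imported proteins in the matrix, had no 1.5-fold difference among 5 measured genes. Hspd1 (Hsp60) had 8365 in FLS and 9421 in DS livers, a ratio of 0.888. Its cap Hspe1 (Hsp10) had 6110 and 7586, a ratio of 0.805, and 0.691 on a second probe set. Hspa9 (mortalin, the mitochondrial Hsp70) had 3964 and 3543, a ratio of 1.12, although another of its measured probe sets had 0.886. The Hsp90 of mitochondria, Trap1, had a ratio of 1.07, and the J protein Dnaja3 had 0.978.

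The 6 subunits of the TRiC/CCT chaperonin, which folds actin and tubulin, had ratios between 0.823 and 1.04. Tcp1 had 2710 in FLS and 3293 in DS livers and Cct2 had 2973 and 3576, the lowest ratios of the ring at 0.823 and 0.831. Cct3, Cct4, Cct5 and Cct8 had ratios of 0.963, 0.991, 1.01 and 1.04. The median log2 ratio of the subunits was -0.03.

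Cochaperones of Hsp70 and Hsp90 had ratios between 0.847 and 1.22 over 8 measured genes, with a median log2 ratio of -0.12. Those 3 that act on Hsp90 and are moderately inducible by heat lay together, with Ahsa1, the activator of its ATPase, at 0.847, Stip1, which passes clients from Hsp70 to Hsp90, at 0.854, and the immunophilin Fkbp4 at 0.855. Stub1 (CHIP), the ubiquitin ligase that marks clients of chaperones for degradation, had the highest ratio of all measured members, with 1809 in FLS and 1477 in DS livers. Fkbp5, an immunophilin induced by glucocorticoids, had 675 and 613, a ratio of 1.10. The kinase cochaperone Cdc37 had 0.941, the Hsp70 cochaperone St13 had 0.983, and Bag1, a nucleotide exchange factor of Hsp70, had 0.905.

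Of the heat shock factors, Hsf2 did not exceed 500. Its probe sets differed in direction. One gave 187 for FLS and 144 for DS livers, the other 83.1 and 123, all close to the array medians. RNA signals do not show the activity of the heat shock factor proteins.

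Other folding genes were taken from lists that hold no member. Zfand2a, a heat-induced regulator of the proteasome, had 529 in FLS and 1480 in DS livers, a ratio of 0.357. It was the 1 of 4 measured genes in a list of 18 further heat shock factor genes and targets to be at least 1.5-fold lower. In that list Cacybp had a ratio of 0.739 and the autophagy receptor gene Sqstm1 had 1.21. Among 13 measured further cochaperones none differed by 1.5-fold, with Ahsa2, a relative of Ahsa1, lowest at 0.673 and Nudcd3, an Hsp90 cochaperone gene, highest at 1.41. Nudcd3, with 580 in FLS and 411 in DS livers, passed the signal limit through the FLS pool alone and so had to be higher there. Hikeshi, which carries Hsp70 into the nucleus in heat stress, was at 0.732. Of 7 further Hsp70 and small heat shock protein genes none exceeded 500. Of 15 measured further chaperonin and prefoldin subunits none differed by 1.5-fold, and of 6 measured further J proteins 1 did, Dnajc12, at 1.88 (790 in FLS and 420 in DS livers), which passed the signal limit through the FLS pool alone and so had to be higher there.

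Chaperones of other compartments and the proteasome had ratios on both sides of 1. Of 21 endoplasmic reticulum chaperones, none was at least 1.5-fold lower and 1 was higher, the disulfide isomerase gene Pdia4 at 1.83, while Dnajc3, a J protein gene, was lowest at 0.753. In 14 measured further genes of mitochondrial folding and proteolysis, 2 had an FLS signal at least 2-fold higher and none was 1.5-fold lower. These were Grpel2, an exchange factor of mitochondrial Hsp70, with 997 in FLS and 450 in DS livers, and Clpx, the unfoldase of the ClpXP protease, with 2930 and 1352. Grpel2 passed the signal limit through the FLS pool alone and so had to be higher there. None of 31 proteasome subunits differed by 1.5-fold. Their ratios ran from 0.770 for Psmc4 to 1.25 for Psma6, with Psmd14 at 0.791 and a median log2 ratio of -0.07.

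**Figure D4:**
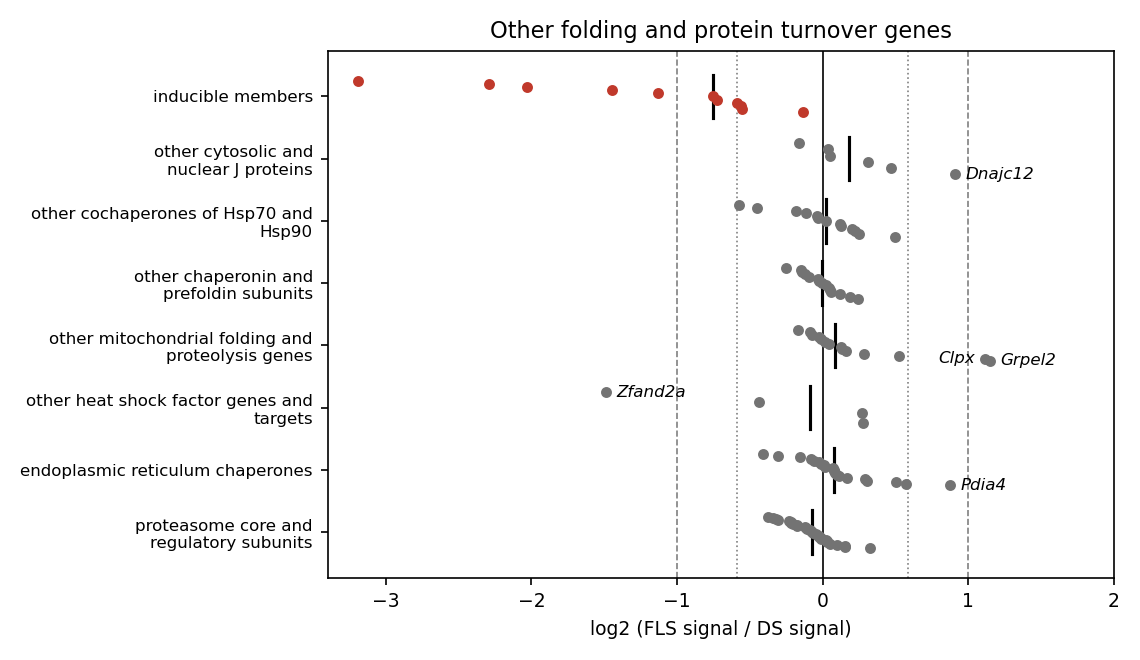
Log2 ratio of FLS to DS signal for the 11 measured inducible members and for the measured genes of 7 other lists of folding and protein turnover genes, 1 array per strain. Black bars mark medians, and dotted and dashed lines mark 1.5-fold and 2-fold. Outside the inducible members, Zfand2a is the single gene beyond 1.5-fold to the left, and Dnajc12, Clpx, Grpel2 and Pdia4 lie beyond it to the right, of which Dnajc12 and Grpel2 exceeded 500 in FLS livers alone.

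Genes of daily rhythm and body temperature, and cell type markers, were read beside these results, because several inducible chaperone genes of mouse liver are known to follow the body temperature cycle. Of 9 measured clock genes, Noct, Nfil3 and Hlf (3 genes) were lower in FLS livers by 1.5-fold or more, and Nr1d1 and Clock (2 genes) were higher. Of all measured genes 4.49% were lower and 6.11% higher by that much. Nfil3, Nr1d1 and Clock exceeded 500 only in the pool where they were higher, so that the limit fixed their direction, and of the 6 clock genes above 500 in both pools 2 were lower and 0 higher by 1.5-fold. Noct, known for a daily rhythm in liver, had 1032 in FLS and 2131 in DS livers, a ratio of 0.484, and Nr1d1 had 612 and 292, a ratio of 2.10. The other measured clock genes did not differ by 1.5-fold, with Dbp at 0.914, Nr1d2 at 0.984, Bhlhe40 at 1.07 and Tef at 0.814. Cirbp, an RNA-binding protein gene induced by cold, had 369 in FLS and 255 in DS livers, below 500. The part of rhythm or body temperature in the chaperone result was not tested. Of 10 measured genes induced by glucocorticoids, Dusp1 was lower (0.568) and Cdkn1a (5.07) and Lcn2 (4.34) were higher by 1.5-fold or more, although both higher genes exceeded 500 in FLS livers alone.

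Hepatocyte markers had ratios from 0.867 to 1.07 over 14 measured genes of 15, the highest signal being that of Alb in FLS livers at 32018. For Kupffer cell and macrophage markers the median log2 ratio was -0.42 (8 of 12 measured, 2 at least 1.5-fold lower), and the summed signals were 7021 (FLS) and 8812 (DS). Of these 8 markers 4 exceeded 500 in DS livers alone and had to be lower in FLS livers, and the median of the other 4 was -0.094, with 1 at least 1.5-fold lower. For stellate cell and fibroblast markers it was 0.46 (6 of 14 measured, 2 at least 2-fold higher, of which Col1a2 exceeded 500 in FLS livers alone), and the sums were 16526 and 11651. Muscle markers, looked at because Cryab and Hspb8 are abundant in muscle, summed to 1871 in FLS and 1951 in DS livers, with 1 of 12 above 500. Sinusoidal endothelial markers summed to 8204 and 7986 with 5 of 11 above 500, and no marker of neutrophils, T and NK cells or bile duct cells exceeded 500. The part of other cells in the chaperone result was not tested, and in bulk RNA fewer cells of a type and less RNA per cell cannot be told apart.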

How the data were processed

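Liver RNA of 3 mice per strain was pooled and hybridized to 1 Affymetrix whole-genome mouse array per strain. The authors summarized and normalized each array with MBEI (PM-only), a model of the perfect-match probes, and deposited signal intensities on a linear scale. The submitters' processing notes name affy, while no source used here describes a scaling between the arrays. The median signal was 120 for FLS and 125 for DS livers, and 16.4% and 16.0% of the 45101 probe sets exceeded 500. With 2 arrays in all, their number limits the precision, and pooling hides the spread between mice. A difference in sequence between the strains under a probe set was not tested.

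The platform annotation gave 1 symbol to 34958 probe sets, several to 932 and none to 9211. Symbols were updated through Entrez numbers, or synonyms, in a RefSeq gene table. Ratios had no offset or rescaling. The members, classes, gene lists, limits and the rule for named genes were chosen with earlier results of these data known. The rule took all members past 1.5-fold, the best known heat shock genes and up to 3 measured genes of each other list with the largest log2 ratios in size. The remaining members were given for completeness. Hlf, Clock, Dbp, Nr1d2, Bhlhe40, Tef, Cirbp, the lowest endoplasmic reticulum chaperone, Dnajc3, and Col1a2 were named after their values were seen. The alternatives, 13 planned and 1 chosen after seeing the data, were other scalings (quantile normalization, centring, loess with a fraction of 0.4, division by Actb), an offset of 50, other probe set choices, signal limits of 200 and 1000, and narrower and wider inducible lists. The steps were tested on simulated data. Without replicates, a log2 ratio was taken to move if its shift exceeded 0.22, the SD over 1425 genes of measured probe sets within a gene, divided for medians by the root of the number of genes, and a count at 1.5 times. Tools were matplotlib 3.10.9, statsmodels 0.14.6, pandas 2.3.3, numpy 2.4.6 and Python 3.11.15.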

Additional observations from a re-analysis of the deposited data

How the results depend on the processing

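Inducible genes had a lower median than constitutive and mitochondrial genes under each of the 14 alternatives, of which centring and division by Actb shift all genes alike and cannot change that difference. Of 139 recomputed counts, medians and differences, 123 stayed within the tolerance, and 278 of 280 ratios of single members did. For single members this count shows little. Centring and division by Actb shift log2 ratios by less than the tolerance of 0.22, so no single ratio could move under them. Nor could they turn the direction of a ratio past 1.5-fold. Genes with 1 probe set cannot change under another choice of probe set. None of the ratios past 1.5-fold changed direction under the other settings either. Division by the Actb ratio, 0.867, raised all log2 ratios by 0.21, and the median of all measured genes to 0.25. Of all measured genes 135 (2.66%) were then at least 1.5-fold lower and 710 (14.0%) higher, in place of 228 and 310, so that higher genes made up 84.0% of the calls in place of 57.6%. It left 5 members at least 1.5-fold lower (without Dnajb4, Hsp90aa1 and Bag3) and gave medians of -0.54 for inducible, 0.14 for constitutive, 0.17 for chaperonin, 0.089 for cochaperone and 0.17 for mitochondrial genes. With both pools above 500, 3 members were at least 2-fold lower, since Hspb1 and Hspa1a fall below that limit, and 49 of all 4405 such genes were. With the narrow list of 7 inducible genes, all at least 1.5-fold lower, the inducible median was -1.45. Its differences from constitutive and mitochondrial genes were -1.38 and -1.41, larger because genes nearer to a ratio of 1 were left out. With the wide list of 15 measured genes the median was -0.59 and the difference from mitochondrial genes -0.55. Without probe sets ending in _x_at or _s_at the constitutive median was -0.26 and the difference from it -0.49. With a gene's probe sets summarized by their median, including those not above 500, the mitochondrial median was -0.17 and the difference from it -0.58. With the measured probe set nearest to 1 for each gene, an alternative chosen after seeing the data, 8 inducible genes were still at least 1.5-fold lower. Of all 5076 measured genes 210 (4.14%) were. No paired analysis was possible because there is 1 array per strain. Centring or an offset left 7 inducible genes at least 1.5-fold lower, without Bag3, where 4.08% and 4.14% of all measured genes were. Signals near the array medians, as for Dnaja4 and Hsf2, limit what their ratios can show.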
